A study of Mus musculus with 8 samples.

Results

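The nuclear-encoded subunits of the oxidative phosphorylation complexes were followed in RNA from c-Kit-enriched cells of B16F10 tumours. They were the protein-coding genes of the count table with names of the Ndufa, Ndufb, Ndufc, Ndufs, Ndufv, Sdh, Uqcr, Cox4 to Cox8 and Atp5 series, 85 of 55450 genes. Of these, 35 belong to complex I, 4 to complex II, 8 to complex III, 20 to complex IV and 18 to complex V, with Ndufa4 and Ndufa4l2 counted in complex IV. By name, complex IV also includes the supercomplex assembly factor Cox7a2l. Complex V includes Atp5s, which is not a stable subunit, and a second Atp5o entry. After a filter on low counts 79 were tested, and 6 were below it. B16F10 is a pigmented mouse melanoma line of C57BL/6 origin, and PERK, encoded by Eif2ak3, is the endoplasmic reticulum kinase that slows translation under protein-folding stress. Wild-type C57BL6 mice of 6 weeks carried subcutaneous tumours from 150000 injected cells for 17 days. The injected cells were either Scramble B16F10 or PERK KO B16F10, so the deletion lay in the tumour cells and the hosts of both groups were wild type. Whether each line is 1 clone, and whether each tumour came from its own mouse, is not stated in the labels. Each group had 4 libraries, which the labels number 2 to 5 for scramble and 1 to 4 for PERK KO.

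The respiratory chain passes electrons from NADH (complex I) and succinate (complex II) through ubiquinone to complex III, cytochrome c and complex IV, where oxygen is reduced. Complexes I, III and IV pump protons across the inner mitochondrial membrane, and complex V, the ATP synthase, uses the gradient to make ATP. Most subunits are encoded in the nucleus and imported, while the mitochondrial genome encodes a few hydrophobic subunits of every complex but II. In melanoma cells the coactivator PGC-1alpha, encoded by Ppargc1a, is known to drive many of these nuclear genes.

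Libraries held 29006949 to 56697163 counts. A floor of 3 counts was 0.0515 to 0.1 CPM (counts scaled to the library total with TMM factors, the unit of level used below), and such floors cover counting error only. Eif2ak3 was at 48.3 to 59.2 CPM in the scramble and 7.73 to 22.7 CPM in the PERK KO libraries, so the targeted transcript was lower in each library labelled PERK KO. The cell type in the labels is a c-Kit-positive precursor. Melanocyte lineage transcripts dominated both groups, with 12 markers whose sum was 29462 ± 294 CPM over the scramble and 23276 ± 1903 CPM over the PERK KO libraries (SD, n = 4 and 4). The 13 blood progenitor markers summed to 38.3 ± 7.2 and 129.5 ± 69.3 CPM, and among them Mpo and Gfi1b had no count in any library. In the edgeR test used below, 5 of the 9 tested rose in PERK KO tumours and none fell. Over all genes tested, 7.66% rose and 6.13% fell. In such bulk samples fewer cells of a type and less RNA per cell cannot be told apart.

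Transcript levels of the subunits were mostly above those of other genes and ranged widely. Per kilobase of exon, the median tested subunit stood at 57.6 CPM per kb in scramble and 54.6 CPM per kb in PERK KO tumours, against 3.3 and 3.46 CPM per kb for all genes tested. The highest in scramble tumours were Cox8a (493 CPM per kb) and Cox6a1 (483 CPM per kb), small membrane subunits of complex IV. They were followed by Atp5c1, the rotor shaft of the ATP synthase, at 305 CPM per kb, and Cox7a2 at 248 CPM per kb. Ndufb2 was the lowest complex I subunit per length at 3.77 CPM per kb, over 5628 bases of annotated exon. In CPM it (21.2) was above Ndufb6 (13.2) and Ndufs5 (15.1). In the plot of levels per length, the tissue-restricted isoforms Cox7a1 (4.33 CPM per kb) and Cox4i2 (0.298 CPM per kb) and the paralogue Ndufa4l2 (1.84 CPM per kb) lie far below the other complex IV genes.

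**Figure D1:**
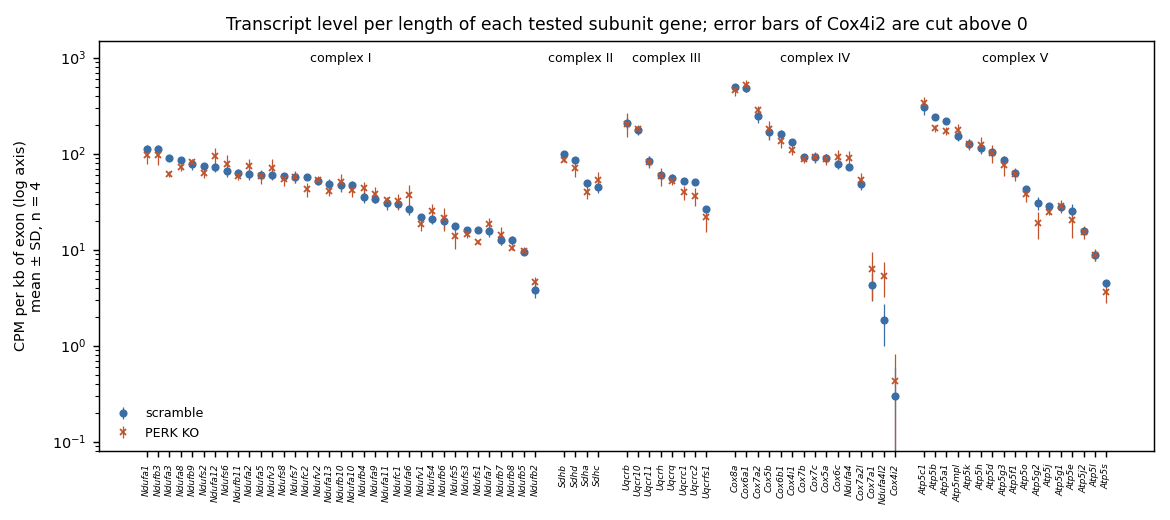
Level of the 79 tested subunit genes in CPM per kb of exon (log axis), ordered within each complex by the scramble mean; points are means and bars the SD over 4 libraries of scramble (blue) and PERK KO tumours (orange). Cox8a and Cox6a1 stand highest, and Cox4i2, Ndufa4l2 and Cox7a1 form the low end of complex IV.

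Some promoters of subunit genes carry motifs of known regulators, shown here because these regulators are described with the results further on. NRF1 and GABP, an ETS factor, are known activators of respiratory chain genes, and YY1 acts on many of them. RefSeq promoters (GRCm38.p6, 250 bases before to 50 after a start) were found for 68 of 84 subunit symbols, 73 promoters in all. Both strands were searched for the NRF1 palindrome, for a looser NRF1 form with any base at its sixth letter, for an ETS motif, and for a YY1 motif and its core. The looser and core forms include every match of the stricter ones. The NRF1 palindrome, printed in capitals in the first sequence below, was in 6.85% of subunit promoters and in 0.971% of all 32851 promoters. Its looser form was in 24.7% against 4.6%. The ETS motif CCGGAAG was in 21.9% against 8.86%, the YY1 motif in 5.48% against 0.633%, and its core AAGATGG, part of the longer form, in 15.1% against 6.34%. Most subunit promoters thus lacked any given motif, and the promoters compared were not matched in base content. The 120 bases before the start are given for 3 genes with NRF1 matches in that window, and then for 3 genes that were lower in PERK KO tumours and have none of these motifs in it. Outside that window, Ndufa3 has a YY1 core 23 bases after its start, and Uqcrc1 has NRF1 matches 6 and 31 bases after its start. Capitals mark the motifs searched, and each sequence reads 5′ to 3′ on the strand of its gene.
Atp5g2, chr15:102671048-102671167, minus strand: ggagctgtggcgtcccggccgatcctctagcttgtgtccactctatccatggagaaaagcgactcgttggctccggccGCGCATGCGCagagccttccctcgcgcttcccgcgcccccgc
Atp5k, chr5:108434400-108434519, minus strand: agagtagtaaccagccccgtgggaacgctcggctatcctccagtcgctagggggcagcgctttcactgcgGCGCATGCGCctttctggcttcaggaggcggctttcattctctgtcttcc
Sdha, chr13:74350241-74350360, minus strand: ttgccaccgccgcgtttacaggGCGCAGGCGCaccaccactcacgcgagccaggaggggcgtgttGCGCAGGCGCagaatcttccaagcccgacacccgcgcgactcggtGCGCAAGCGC
Ndufa3, chr7:3617253-3617372, plus strand: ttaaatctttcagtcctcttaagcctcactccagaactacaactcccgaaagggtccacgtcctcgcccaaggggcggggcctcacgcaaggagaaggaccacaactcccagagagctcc
Atp5b, chr10:128083187-128083306, plus strand: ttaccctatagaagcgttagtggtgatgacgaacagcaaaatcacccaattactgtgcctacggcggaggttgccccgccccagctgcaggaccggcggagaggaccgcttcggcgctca
Uqcrc1, chr9:108936528-108936647, plus strand: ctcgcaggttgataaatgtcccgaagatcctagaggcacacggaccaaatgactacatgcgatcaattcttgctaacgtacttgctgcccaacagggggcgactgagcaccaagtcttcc

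The comparison asked whether loss of PERK in the injected cells goes with other levels of subunit transcripts. Most did not pass the test. Of 79 tested, 7 fell and 1 rose in PERK KO tumours (edgeR quasi-likelihood test, adjusted p under 0.05 over 16662 genes), so 10.1% were called against 13.8% of all genes tested. The 7 that fell are 8.86% of the subunits, and 6.13% of all genes fell, while the 1 that rose is 1.27%, against 7.66% of all genes. Of protein-coding genes tested, 16.5% were called, 7.39% lower and 9.07% higher. An unadjusted p under 0.05 was reached by 24 of the 79 subunits and by 26.7% of all genes. The median log2 difference was -0.029, with the middle 50% between -0.24 and 0.14, beside a median of -0.018 over all genes tested. The median SE was 0.13, against 0.22 over all genes. Groups did not overlap at 14 subunits (17.7%, against 21.3% of all genes), of which 13 were lower and 1 was higher in PERK KO tumours, where 11.1% and 10.2% of all genes were lower and higher without overlap.

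**Figure D2:**
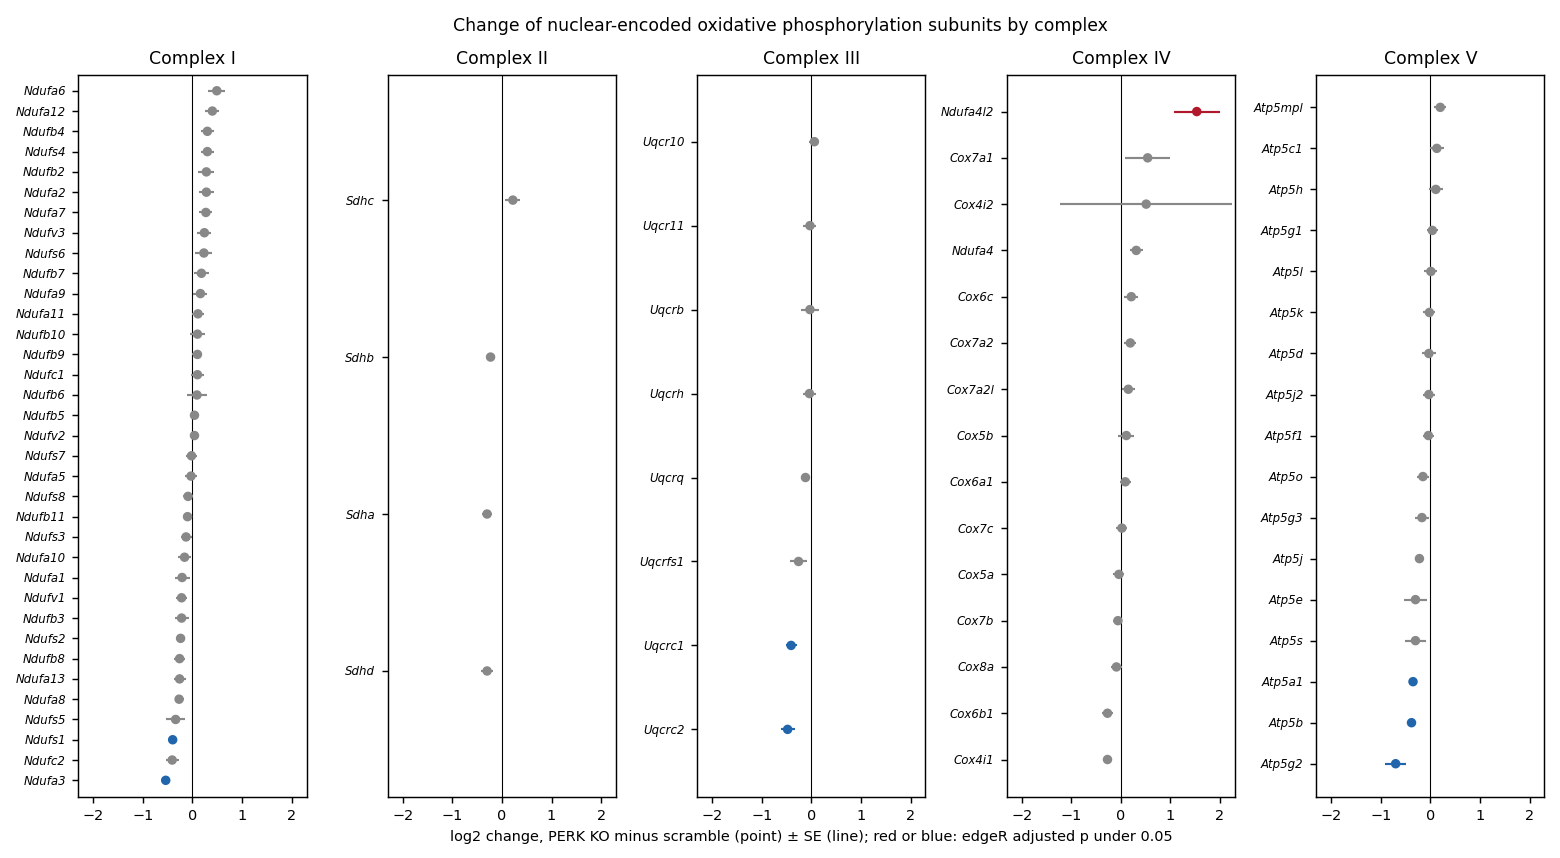
Log2 change of each tested subunit gene (PERK KO minus scramble), with its SE as a line, by complex; blue and red points passed the edgeR test at an adjusted p of 0.05. The 7 genes that fell are in complexes I, III and V, the 1 that rose is Ndufa4l2, and 74 of the 79 points lie within 0.5 of 0.

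In complex I, the NADH dehydrogenase, 2 of 35 subunits fell and none rose, with a median log2 difference of 0.036. Ndufa3, a small accessory subunit of the membrane arm (chromosome 7, 3617373 to 3620327), was at 92.1, 85.5, 100.1 and 88.1 CPM in scramble libraries 2 to 5 and at 62.2, 57.1, 69.1 and 63.7 CPM in PERK KO libraries 1 to 4. The groups lay clearly apart, and Ndufa3 fell by 0.54 in log2 units (SE 0.09, edgeR adjusted p = 0.00381). Ndufs1, the largest core subunit, which carries iron-sulphur clusters (chromosome 1, 63143596 to 63176833), was at 125, 124, 138 and 132 CPM in scramble and 98.1, 104, 91.6 and 99.2 CPM in PERK KO libraries. No PERK KO library reached a scramble library, and the change was -0.40 (SE 0.08, edgeR adjusted p = 0.00811). Ndufc2, a membrane arm subunit, was at 43.5, 45.4, 42.1 and 40.5 CPM in scramble and 28.3, 37.9, 27.2 and 36 CPM in PERK KO libraries. These did not overlap, but the log2 difference of -0.41 (SE 0.13) missed the threshold (edgeR adjusted p = 0.054). The complex I transcripts highest per length belong to the membrane arm. Ndufa1 was at 50.7, 42.1, 49.8 and 46.4 CPM in scramble and 46.2, 49.2, 38.6 and 29.8 CPM in PERK KO libraries. Ndufb3 was at 81.5, 74.1, 94.7 and 91 CPM in scramble and 96.3, 65.5, 65.1 and 66.3 CPM in PERK KO libraries. Both overlapped between the groups (edgeR adjusted p = 0.435 and 0.362). By the parts of the enzyme, the median was 0.235 over 8 subunits of the NADH module, -0.026 over 8 of the quinone module, -0.26 over 9 of the proximal and 0.094 over 10 of the distal membrane arm. Within the NADH module 6 of 8 differences were above 0, led by Ndufa12, at 113 ± 11.9 CPM in scramble and 149 ± 30.8 CPM in PERK KO tumours (n = 4 and 4, edgeR adjusted p = 0.0857). The 2 below 0 included Ndufs1, the only gene of this module that was called. The summed level of the module overlapped between the groups (704 to 820 CPM in scramble and 667 to 941 CPM in PERK KO libraries). The largest difference above 0 in complex I was that of Ndufa6, a quinone module subunit, with 47.1 ± 5.52 and 66.4 ± 18.3 CPM (log2 difference 0.49, SE 0.17, edgeR adjusted p = 0.0798). Ndufa12 and Ndufa6 passed in the alternatives with DESeq2 and with limma-voom.

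None of the 4 subunits of complex II, succinate dehydrogenase, passed the test. Sdhb, the iron-sulphur subunit, was at 219, 227, 227 and 225 CPM in scramble and at 193, 196, 178 and 198 CPM in PERK KO libraries. Its groups did not overlap and its scramble values were tight, yet the log2 difference of -0.23 (SE 0.07) had an edgeR adjusted p of 0.0542. Sdha, the flavoprotein that oxidises succinate, was at 202, 203, 208 and 199 CPM in scramble and 185, 184, 135 and 155 CPM in PERK KO libraries, again without overlap (log2 difference -0.30, SE 0.10, edgeR adjusted p = 0.0814). Of the membrane anchors, Sdhd was at 100, 105, 105 and 116 CPM in scramble and 89.4, 81, 68.8 and 106 CPM in PERK KO libraries (log2 difference -0.30, SE 0.12, edgeR adjusted p = 0.13). Sdhc was at 132, 142, 136 and 178 CPM in scramble and 206, 197, 132 and 149 CPM in PERK KO libraries (log2 difference 0.22, SE 0.15, edgeR adjusted p = 0.413). Both anchors overlapped between the groups. Sdhb passed with DESeq2, Sdha with limma-voom, and both with library totals alone.

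In complex III, the cytochrome bc1 complex, 2 of 8 subunits fell and none rose, and 7 of 8 differences were below 0 (median -0.078). The 2 that fell were the large matrix-facing core proteins. Uqcrc1 (chromosome 9, 108936633 to 108949623) was at 218, 217, 220.1 and 210.3 CPM in scramble and 154, 156, 138 and 205 CPM in PERK KO libraries. PERK KO library 4 lay just under the lowest scramble library, and the change was -0.41 (SE 0.11, edgeR adjusted p = 0.0325). Uqcrc2 (chromosome 7, 120635176 to 120659524) was at 138, 125, 119 and 138 CPM in scramble and 96, 79.7, 76.1 and 120.3 CPM in PERK KO libraries. Here library 4 lay inside the scramble range, and the change was -0.48 (SE 0.14, edgeR adjusted p = 0.0349). Uqcrfs1, the Rieske iron-sulphur protein, showed the same split, with 25.7, 24.9 and 25.7 CPM in PERK KO libraries 1 to 3 and 43.4 CPM in library 4, beside 38.2, 34.3, 36.9 and 34 CPM in scramble (edgeR adjusted p = 0.394). Without PERK_KO replicate 4, the library that stood apart, the log2 difference of Uqcrfs1 was -0.5 (edgeR adjusted p = 0.0123). It passed in only this 1 of 20 alternatives (adjusted p up to 0.897). Dropping the library with the unlike value favours such a call, so no fall is read from it. The 5 small subunits had log2 differences between -0.12 and 0.06. Those highest per length were Uqcrb and Uqcr10. Uqcrb was at 156, 183, 179 and 219.8 CPM in scramble and 197, 239, 120.4 and 167 CPM in PERK KO libraries. Uqcr10 was at 90.4, 96.2, 114 and 108 CPM in scramble and 102, 122, 102 and 100 CPM in PERK KO libraries. Neither differed beyond its spread (edgeR adjusted p = 0.95 and 0.79). The calls of Uqcrc1 and Uqcrc2 ended when any 1 scramble library was left out, or PERK KO library 1, 2 or 3 (edgeR adjusted p from 0.0552 to 0.0882 and from 0.0545 to 0.0999), and with RLE factors (0.0567 and 0.056).

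In complex IV, cytochrome c oxidase, none of the 11 ubiquitous subunits passed (median 0.015). Cox4i1, the most conserved nuclear subunit, came nearest, at 202, 203, 205 and 209 CPM in scramble and 172, 139.8, 181 and 185 CPM in PERK KO libraries (log2 difference -0.27, SE 0.09, edgeR adjusted p = 0.079). The groups did not overlap. Ndufa4, once assigned to complex I, was at 96.8, 93.9, 110.1 and 100.1 CPM in scramble and 139, 110.3, 150 and 96.2 CPM in PERK KO libraries (log2 difference 0.31, SE 0.13, edgeR adjusted p = 0.159). Cox8a, the subunit highest per length, was at 275, 290.3, 321 and 335 CPM in scramble and 334, 309.7, 247 and 257 CPM in PERK KO libraries. Cox6a1 was at 311, 320.1, 354 and 372 CPM in scramble and 374, 421, 293 and 351 CPM in PERK KO libraries. Both overlapped fully between the groups (edgeR adjusted p = 0.698 and 0.715). The 1 gene that rose was Ndufa4l2, a paralogue of Ndufa4 known as a target of the oxygen-regulated factor HIF-1 and as a mural cell gene (chromosome 10, 127514967 to 127517154). It was at 2.32, 0.738, 2.06 and 2.96 CPM in scramble and 4.15, 8.25, 7.36 and 3.61 CPM in PERK KO libraries. All 4 PERK KO libraries were above all scramble libraries, with libraries 2 and 3 the highest, and the change was 1.53 in log2 units (SE 0.46, edgeR adjusted p = 0.0456). Its call ended without any 1 scramble library or PERK KO library 2 or 3 (edgeR adjusted p from 0.0607 to 0.109), and without both of these libraries the difference was 0.94 (adjusted p = 0.273). Pdgfrb, a mural cell marker from a list of 7 fibroblast genes, was highest in PERK KO library 3 (13.7 CPM) and lowest in library 2 (0.903 CPM). In that list 1 gene, Lum, rose (14.3%, against 7.66% of all genes tested), none fell, and 6 of 7 differences were above 0. Its collagen genes Col1a1, Col1a2 and Col3a1 were, among PERK KO libraries, lowest in library 1 and highest in library 3. The part of stromal cells in the Ndufa4l2 result was not tested.

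In complex V, the ATP synthase, 3 of 17 tested genes fell and none rose (median -0.038). Atp5b, the catalytic beta subunit (chromosome 10, 128083273 to 128090391), was the most abundant subunit transcript of all in CPM, at 1067.4, 997, 1033.9 and 950.5 CPM in scramble and 763, 766, 707 and 876 CPM in PERK KO libraries. Its partner Atp5a1, the alpha subunit (chromosome 18, 77773729 to 77782869), was at 679.9, 687, 711 and 690.4 CPM in scramble and 586, 563, 473 and 551 CPM in PERK KO libraries. Neither pair of groups overlapped, and the changes were -0.38 and -0.35 (SE 0.09 and 0.08, edgeR adjusted p = 0.0146 and 0.0181). Atp5c1, which joins them in the head, was at 524, 524, 551 and 728 CPM in scramble and 747, 643, 486 and 663 CPM in PERK KO libraries, with overlapping groups (log2 difference 0.13, SE 0.14, edgeR adjusted p = 0.658). The call of Atp5a1 ended without scramble replicate 2, 3, 4 or 5 (adjusted p = 0.052, 0.0593, 0.0575 and 0.0504), and that of Atp5b without scramble replicate 2 (0.0558). The stalk subunit Atp5j was lower in all PERK KO libraries than in any scramble library without passing (89.8 ± 5.14 and 76.8 ± 5.9 CPM, edgeR adjusted p = 0.124).

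Mouse has 3 nuclear genes for subunit c of the ATP synthase ring, Atp5g1, Atp5g2 and Atp5g3, which encode the same mature protein. Atp5g2 (chromosome 15, 102662864 to 102672352) was at 48.7, 51.8, 61.9 and 43.4 CPM in scramble and 34.9, 18.5, 42.4 and 30.5 CPM in PERK KO libraries. The groups were separated by a narrow gap, and Atp5g2 fell by 0.70 in log2 units (SE 0.21, edgeR adjusted p = 0.047). Atp5g1 was at 128, 132, 140.3 and 142 CPM in scramble and 153, 139.7, 109 and 154 CPM in PERK KO libraries. Atp5g3 was at 184, 171, 209 and 183 CPM in scramble and 137, 221, 159.5 and 146 CPM in PERK KO libraries. Neither passed (edgeR adjusted p = 0.884 and 0.5). The log2 ratio of Atp5g1 to Atp5g2 counts was 1.41 ± 0.22 in scramble and 2.19 ± 0.64 in PERK KO libraries (n = 4 and 4, exact two-sided permutation p = 0.0857). The Atp5g2 count is uncertain, since 34.5% of its 105-base stretches also occur in transcripts of other genes, chiefly the processed pseudogene Gm10175. Its call ended without any 1 scramble library or PERK KO library 1 or 4 (edgeR adjusted p from 0.0637 to 0.133), and it was kept in 6 of 20 alternatives. Among the tested subunits, 60 of 79 shared no such stretch with another gene.

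**Figure D3:**
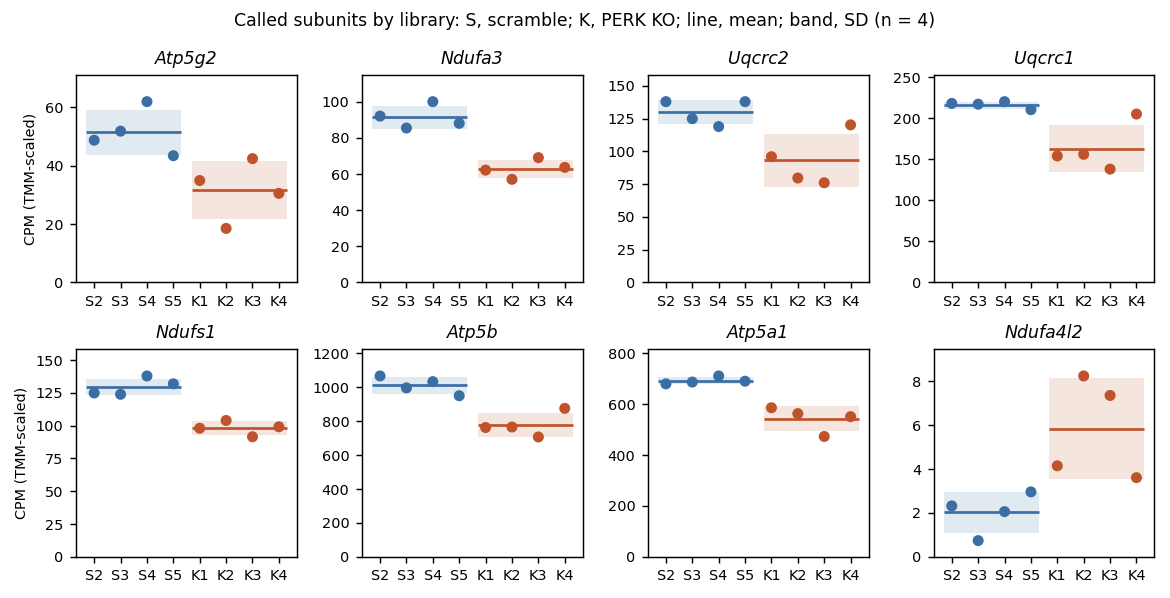
Level in CPM of the 8 called subunit genes in each library (S, scramble; K, PERK KO), with the group mean as a line and the SD as a band (n = 4 and 4). Ndufa3, Ndufs1, Atp5b and Atp5a1 show separated groups, Uqcrc1 and Uqcrc2 have PERK KO library 4 near or inside the scramble range, and Ndufa4l2 is the 1 gene that is higher.

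Isoform ratios within a library do not depend on its scaling, and 7 pairs with both genes above the filter were compared by exact two-sided permutation over 70 assignments. The log2 ratio of Ndufa4l2 to Ndufa4 was -5.38, -6.97, -5.73 and -5.07 in scramble and -5.06, -3.74, -4.35 and -4.73 in PERK KO libraries. The difference of 1.32 had exact permutation p = 0.0286, the smallest this design can give, and 0.2 when adjusted over the 7 pairs. No pair passed after adjustment. The ratio of Cox7a2l, a supercomplex assembly factor, to Cox7a2 was -1.72 ± 0.13 in scramble and -1.78 ± 0.25 in PERK KO libraries (exact permutation p = 0.8). Cox7a2 itself was at 198, 214, 241 and 284 CPM in scramble and 293, 292, 228 and 258 CPM in PERK KO libraries, and Cox7a2l at 62.9, 64.3, 79.1 and 76.4 CPM and 67.7, 98.3, 75.3 and 72.9 CPM. Cox7a1, the heart and muscle isoform of subunit 7a, was at 1.43, 1.91, 2.95 and 2.98 CPM in scramble and 1.98, 2.61, 2.95 and 5.9 CPM in PERK KO libraries. Cox4i2, the oxygen-responsive isoform of subunit 4, was at 0.507, 0.103, 0 and 0.329 CPM in scramble and 0, 0, 0.557 and 0.78 CPM in PERK KO libraries, too few counts for a comparison. Other restricted isoforms were below the filter. Cox7b2 and Cox8c had no count in any library, Cox6a2 had 3 counts in scramble library 3, and Cox8b had 5 counts there and 17 in PERK KO library 3. Cox6b2, the testis isoform, had 8 counts in scramble library 5 and 41 in PERK KO library 3. The sixth gene below the filter was a second Atp5o entry with no count, 75.6% of whose 105-base stretches lie in other transcripts.

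Of the 7 genes that fell, 5 were in a set called core here. When the subunits were divided, after these values were known, into the core set (7 of complex I, all 4 of complex II, Uqcrc1, Uqcrc2 and Uqcrfs1 of complex III, and the 5 of the ATP synthase head) and the rest, 5 of 19 core subunits fell and none rose, with a median of -0.242 and 16 differences below 0. Of 60 other tested subunits, 2 fell and 1 rose, with a median of 0.026 and 28 differences below 0. Over all genes tested, 6.13% fell and 7.66% rose. Because the division followed the values, the contrast between core and other subunits has no test. The core set does not follow 1 definition across complexes. Cyc1 of complex III lies outside the name rule, and the c ring genes were counted with the rest. Of the core set, 1 of 7 fell in complex I, 0 of 4 in II, 2 of 3 in III and 2 of 5 in V. The core set summed to 4271 ± 126 CPM in scramble and 3693 ± 357 CPM in PERK KO tumours, and the other subunits to 5950 ± 487 and 6057 ± 653 CPM (SD, n = 4 and 4). The core sum includes the called and abundant Atp5b (means 1012.2 and 778 CPM) and Atp5a1 (692 and 543 CPM). It is thus no support apart from those calls. Across the 79 genes the log2 change had Pearson r = -0.14 and Spearman rho = -0.11 with exon length, genes not being independent replicates. The calls were unevenly spread over length. Of 39 subunits above the median exon length 6 fell, and of 40 at or below it 1 fell. Over all genes tested 7.04% fell above that length and 1.47% at or below it. Over protein-coding genes alone, which the subunits all are, these shares were 7.78% and 2.73%. The part of length in the subunit calls was not tested. In the same libraries 7 of 12 melanocyte markers fell and none rose, and 10 of 12 pan-leukocyte genes rose, their summed level going from between 296 and 378 CPM to between 552 and 1385 CPM. These shares of 58.3% and 83.3% stand beside 6.13% lower and 7.66% higher over all genes tested. All 10 mast cell markers rose (23.4 to 168 CPM summed in scramble, 714 to 3140 CPM in PERK KO libraries), as did all 10 macrophage markers (59.5 to 147 and 317 to 937 CPM) and 11 of 12 epithelial markers (5.27 to 7.66 and 103 to 265 CPM). The summed melanocyte markers ran from 29206 to 29885 CPM in scramble and from 20667 to 25101 CPM in PERK KO libraries. The part of this shift in cell markers in the subunit results was not tested.

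Libraries of the same group also differed from each other. PERK KO library 3 held the lowest value of its group at 43 of 79 subunits and PERK KO library 2 the highest at 30, and in scramble tumours library 5 was highest at 43 and library 2 lowest at 37. The median subunit lay at -0.19 on the log2 scale against the scramble mean in PERK KO library 3, and at -0.029, 0.042 and -0.056 in libraries 1, 2 and 4. Complex II reached -0.464 and complex III -0.371 in library 3. The median coefficient of variation of the subunits was 9.87% in scramble and 16.1% in PERK KO tumours, smaller than the 13.2% and 25.6% of all genes tested. The subunits were mostly at higher levels than other genes, and no set matched for level was compared.

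The subunit mRNAs made by the mitochondrial genome had larger log2 changes than the nuclear ones, with larger SEs. Of 12 tested, 8 rose (66.7%, against 7.66% of all genes tested) and none fell. The median log2 change was 1.69 (values 0.81 to 1.94), with a median SE of 0.47, against 0.13 for nuclear-encoded subunits. The 8 calls had edgeR adjusted p from 0.0199 to 0.049, and mt-Co1 missed the threshold (0.0589). The summed level of these mRNAs was 29258 to 35643 CPM in scramble libraries. In PERK KO libraries 1 to 4 it was 42589, 200345, 112863 and 57344 CPM, highest in libraries 2 and 3. Libraries 2 and 3 thus stood apart in mitochondrial RNA (17.3% and 11.1% of all counts, against 3.01% to 5.88% in the others), while the nuclear median was 0.042 in library 2 and -0.19 in library 3. Without libraries 2 and 3, 7 nuclear-encoded subunits fell and 3 rose, and 5 of the 8 nuclear-encoded subunits called above were called again. Calls of the mitochondrial mRNAs without libraries 2 and 3 are not given here. Several mitochondrial mRNAs, such as mt-Co2 (3.25 CPM) and mt-Atp6 (2.22 CPM), were listed far below mt-Co1 (7134 CPM) in scramble tumours, and the cause was not tested.

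**Figure D4:**
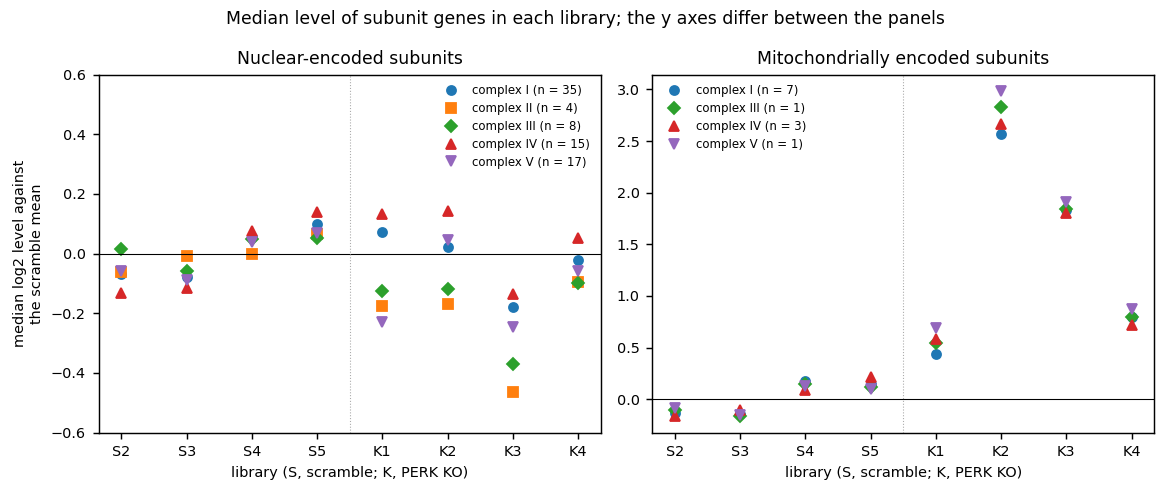
Median log2 level of subunit genes in each library against the mean of the scramble libraries, for nuclear-encoded (left) and mitochondrially encoded (right) subunits of each complex; n is the number of genes. Nuclear medians stay between -0.464 and 0.141, while the mitochondrial median of complex I is 2.568 and 1.836 in PERK KO libraries 2 and 3.

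Other genes of the pathway came from lists of assembly factors, mitochondrial ribosomal proteins, tricarboxylic acid (TCA) cycle enzymes and regulators. Over all genes tested, 6.13% fell and 7.66% rose. Of 49 tested assembly factors, which insert cofactors or join modules of the complexes, none passed the edgeR test (median -0.175, 6 with an unadjusted p under 0.05). One of 77 mitochondrial ribosomal proteins was called, Mrpl13, which rose by 0.34 (SE 0.10, edgeR adjusted p = 0.0336). It was called in 9 of 20 alternatives (adjusted p from 0.00345 to 0.18), and its call ended without any 1 scramble library or PERK KO library 1, 2 or 4 (0.053 to 0.122). None of 6 tested genes outside the name rule passed, among them Cyc1, cytochrome c1 of complex III, at 95.6 ± 8.08 and 89.9 ± 11.4 CPM. Of 18 TCA cycle and pyruvate dehydrogenase genes, 6 fell (33.3%) and none rose (median -0.223, 16 differences below 0). Idh2, the mitochondrial NADP-dependent isocitrate dehydrogenase, was at 209, 203, 187 and 215 CPM in scramble and 142, 153, 115 and 124 CPM in PERK KO libraries, and fell by 0.61 (SE 0.10, edgeR adjusted p = 0.00341). Idh3a, the catalytic subunit of the NAD-dependent enzyme, fell by 0.51 and Dlst, of the 2-oxoglutarate dehydrogenase complex, by 0.42 (edgeR adjusted p = 0.00247 and 0.00662).

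Of 13 regulators of mitochondrial genes, Ppargc1a fell (7.69%, against 6.13% of all genes tested) and none rose. It was at 250.3, 270.3, 249 and 268 CPM in scramble and 128, 95.5, 127 and 119 CPM in PERK KO libraries. The groups were far apart, and the change was -1.14 (SE 0.10, edgeR adjusted p = 0.000114), called in all 20 alternatives (-1.21 to -1.05). The factors whose motifs were searched above did not pass. Nrf1 was at 50.1 ± 3.15 and 46.8 ± 5.89 CPM (edgeR adjusted p = 0.663), Gabpa at 105 ± 9.2 and 85.1 ± 7.1 CPM (0.0597), and Yy1 at 130 ± 2.04 and 113 ± 4.56 CPM (0.104). Among the tested subunits with a promoter in the table, the 17 with the looser NRF1 motif had a median log2 difference of -0.03 (2 fell), and the 48 without it also -0.03 (2 fell). Of the 5 with the NRF1 palindrome 2 fell (median -0.02), and of the 60 without it 2 fell (-0.03). The 16 with the ETS motif had a median of -0.065 and none was called, and of the 49 without it 4 fell (-0.03). The 4 with the longer YY1 motif had a median of 0.195 and none was called, and of the 61 without it 4 fell (-0.04). For the YY1 core, 1 of 11 with it (-0.02) and 3 of 54 without it fell (-0.035). Only 4 of the 8 called subunits, Ndufa3, Atp5b, Uqcrc1 and Atp5g2, had a promoter to search. Ndufs1, Uqcrc2, Atp5a1 and Ndufa4l2 are therefore in none of these sets. These are descriptions of small sets and were not tested. The Atp5g2 and Uqcrc1 promoters both hold the NRF1 palindrome, at 42 bases before the start of Atp5g2 (position -42) and at 31 bases after that of Uqcrc1, outside the window printed. A match describes the letters in this window and not binding.

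**Figure D5:**
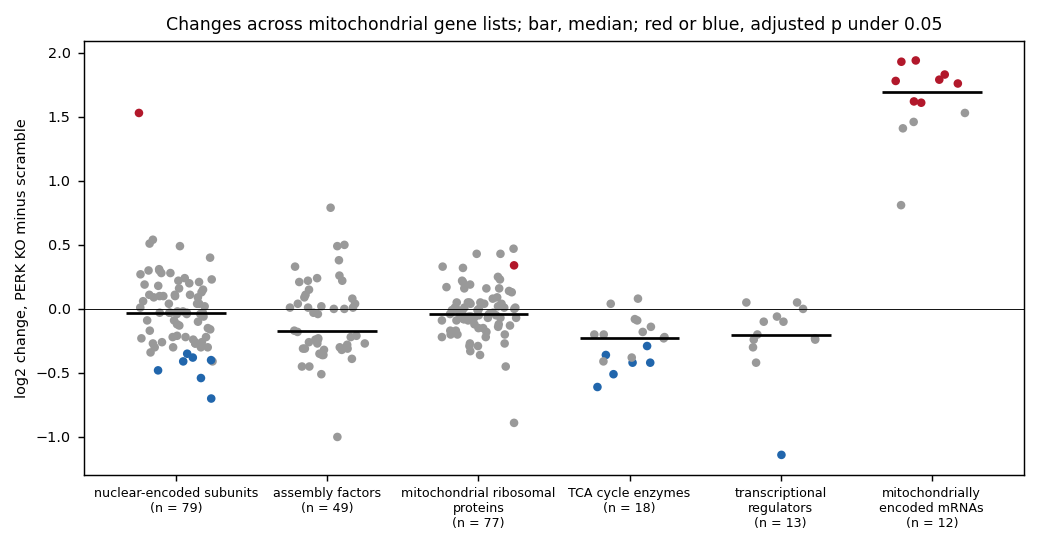
Log2 change (PERK KO minus scramble) of every tested gene in 6 mitochondrial gene lists, with the median as a bar; n is the number of genes, and blue and red points passed the edgeR test at an adjusted p of 0.05. The medians run from -0.223 for TCA cycle enzymes and -0.029 for nuclear-encoded subunits to 1.69 for mitochondrially encoded mRNAs, and the lowest regulator is Ppargc1a at -1.14.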

How the data were processed

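RNA from c-Kit bead-enriched tumour cells (100 ng) was made into strand-specific libraries and read as pairs of 105 bases, per the labels' protocols. The authors deposited raw counts, whole numbers per gene, and a normalized signal, which equals the deposited counts divided by 1 factor per library and served only to check them. Genome build mm10, STAR 2.5.3a, DESeq2 1.30.1, HTSeq 0.6.1 and bcl2fastq are named, without settings, in the submitters' processing notes, so the strand setting is not given in the sources used here.

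Genes were filtered with filterByExpr by group (16662 kept), scaled with TMM (factors 0.863 to 1.03) and compared in edgeR 4.0.16 under R 4.3.3 by its robust quasi-likelihood fit on group, with Benjamini-Hochberg adjustment at 0.05. Values after ± are SDs. P-values measure the spread between these libraries. Positions and exon lengths came from GENCODE M21, the length being that of all annotated exons of a gene joined, which can exceed the length of its mRNA. Isoform ratios added 0.5 to counts. Alternatives used DESeq2 1.42.0, limma 3.58.1 (voom), other scalings and filters, a fit that is not robust, a replicate block and left-out libraries. The code was tested on simulated data with less spread between libraries than these data have, so its performance at this spread was not tested. The subunits, lists and tests were chosen with earlier results of these data known. Values per library were given for subunits called with at least a 1.5-fold change, for the 3 with the smallest p and the 2 highest per length in each complex, for core subunits discussed and for tested isoform pairs. In other lists the up to 3 genes with the smallest p could be named, and Cyc1, Nrf1, Pdgfrb, mt-Co1, Atp5j, Ndufa6 and Ndufa12 were named after their values were seen. Scripts also used Python 3.11.15, numpy 2.4.6, pandas 2.3.3, scipy 1.17.1 and matplotlib 3.10.9.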

Additional observations from a re-analysis of the deposited data

Results flagged for a closer look

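Values of 4 libraries in a group were screened for 1 library far from the rest, a screen that chance passes in about 1 of 20 groups, and 2 of 54 groups were picked out. Uqcrfs1, the Rieske protein of complex III, was at 43.4 CPM in PERK KO library 4 against 24.9 to 25.7 CPM in libraries 1 to 3. The summed level of complex V was 3024 CPM in PERK KO library 3, against 3619 to 3707 CPM in libraries 1, 2 and 4.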

How the results depend on the processing

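The number of subunits that fell (7) was 4 with RLE factors and between 2 and 10 when 1 library was left out. It was 2, 3, 3 and 3 without scramble replicate 2, 3, 4 and 5. The number that rose (1) was 3 with DESeq2, 3 with limma-voom, 0 with library totals alone, 0 in the fit that is not robust, 0 to 2 when 1 library was left out, and 3 without PERK KO libraries 2 and 3, a setting added after the data were seen. Over all genes, 653 fell with upper-quartile factors, and leaving out 1 library gave 639 to 1372 higher and 439 to 1244 lower. The replicate block used the numbers 2 to 4 that both groups share. With the replicate block 139 genes were higher and 60 lower over all genes, and 0 subunits were higher and 0 lower. The same 6 libraries without the block, also added later, gave 913 higher and 421 lower genes, with 0 subunits higher and 1 lower. Same-numbered libraries correlated at -0.009, 0.098 and -0.204 in their deviations from the group means, and 1 of these 3 scramble libraries, number 3, correlated best with its own number, so the numbers were not taken to pair tumours. With 1 library left out, the median of complex I (0.036) ran from -0.03 to 0.077, that of II (-0.267) from -0.279 to -0.208, that of III (-0.078) from -0.178 to -0.067, that of IV (0.112) from 0.016 to 0.189 and that of V (-0.038) from -0.148 to -0.028. The sign of the complex I median thus changed with the library left out, and with library totals alone (-0.031). That of complex V changed with DESeq2 (0.004), RLE (0.004) and upper-quartile factors (0.015) and in the 6 libraries without the block (0.01). The ratio difference of Cox4i2 to Cox4i1 (-0.02) was 0.6 with 5 added to each count, 1.33 with the replicate block and -1.18 to 0.9 with 1 library left out. That of Cox7a2l to Cox7a2 (-0.05) was 0 with the block and -0.12 to 0.06 without 1 library, and that of Cox7a1 to Cox7a2 (0.28) was -0.05 to 0.54. Of the called subunits, Ndufa3 was called in 19 of 20 alternatives, Ndufs1 in 18, Atp5b in 17, Atp5a1 in 14, Uqcrc1, Uqcrc2 and Ndufa4l2 in 9 each and Atp5g2 in 6. The cause of these losses was not tested. The part of depth was not tested, and Cox4i2 and the isoforms below the filter had few counts.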
